A study of Mus musculus with 27 samples.

Results

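Brain and lymph node of the laboratory mouse were compared for the transcript levels of genes that build, carry, bind or degrade glycans, and of chemokine, cytokine and growth factor genes. Brain gave 3 arrays and lymph node 3, taken by their labels from a set of 27 arrays that covers 9 tissues with 3 arrays each. All mice were wild-type C57BL/6 males, an inbred strain, aged 6 to 8 weeks, and the labels name no treatment. The labels do not say which brain region or which lymph nodes were taken, whether animals were pooled, or whether each array stands for an animal of its own. The p-values below therefore measure the spread between arrays, which may be technical. Each gene is represented by 1 probe set of a custom 1-colour Affymetrix array, the one with the highest mean over the 27 arrays, which gave 573 mouse genes. Values are deposited intensities in arbitrary units. Differences are log2 of brain minus lymph node with their standard error from limma, so that a positive difference means higher in brain.

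Brain is rich in glycolipids: oligodendrocytes make galactosylceramide for myelin, and neurons carry sialic acid-bearing glycosphingolipids, the gangliosides, on their surface. Lymph nodes are built around lymphocyte traffic. High endothelial venules display sulfated and sialylated mucins that L-selectin on lymphocytes binds, stromal cells secrete chemokines that sort B cells and T cells into separate zones, and macrophages and dendritic cells bear many lectins that bind sugars on microbes. In whole tissue, fewer cells of a type and less RNA per cell cannot be told apart.

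Called genes had an adjusted p under 0.05 (limma, Benjamini-Hochberg over the 573 genes) and a log2 difference of at least 1 in size. By this measure 30 genes were higher in brain, 5.24% of those tested, and 103 were higher in lymph node, 18% of those tested. Brain thus held 22.6% of the 133 calls, and 43.3% with quantile normalization, which moved the median of all genes to 0.19, against -0.01 as deposited. Genes higher in brain had a median difference of 1.75, with 11 at 4-fold or more and 2 at 8-fold or more. Genes higher in lymph node had a median of -2.01, with 52 at 4-fold or more and 23 at 8-fold or more. Without the threshold on size, 293 genes (51.1%) passed on adjusted p. On all 133 genes the 3 arrays of one tissue lay on one side of the 3 arrays of the other, as they did for 347 of the 573 genes (60.6%).

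**Figure D1:**
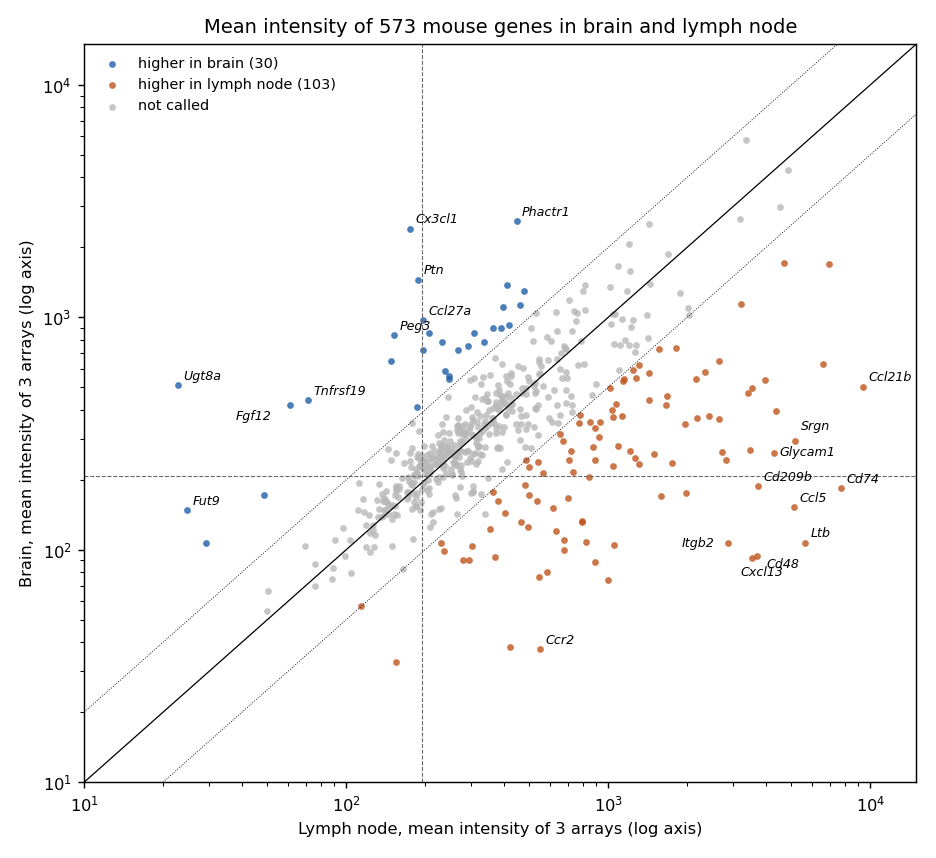
Mean intensity of each of the 573 genes in brain (vertical log axis) against lymph node (horizontal log axis), each point the mean of 3 arrays. The solid line marks equal levels, the dotted lines a 2-fold difference and the dashed lines the median of the human probe sets in each tissue. The 103 genes higher in lymph node reach farther from the line of equal levels than the 30 genes higher in brain.

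The arrays of a tissue resembled each other. Correlations across genes were 0.931 to 0.984 within brain, 0.975 to 0.986 within lymph node, and 0.420 to 0.523 between the tissues. Brain replicate 2 had the lower correlations of its group, 0.931 and 0.945. The ratio of 3' to 5' probe sets of the Actb control, a measure of RNA integrity and labelling, was 1.53 to 1.64 on the brain arrays and 1.03 to 1.11 on the lymph node arrays, and that of Gapdh was 1.28 to 1.81 on the brain arrays and 1.28 to 1.39 on the lymph node arrays. The Actb ratio moved with the tissue, and its part in the differences was not tested. Human probe sets on the same arrays, a rough guide to cross-species signal, had a median of 208 in brain and 195 in lymph node. A level below it is not separated from such signal, so that a fold on it is a ratio of signals. This touched 11 of the 30 genes higher in brain, on the lymph node side, and 42 of the 103 higher in lymph node, on the brain side. The 95th percentile of the human probe sets over the 6 arrays was 572, so a level above their median can still lie within their range. Of the 839 human probe sets, 2 had a log2 difference of 1 or more and 26 one of -1 or lower.

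Marker genes were set beside the tissue labels. The marker lists were chosen with earlier results of these data known, so they are not an independent check of the labels. Of 7 measured neuron and glia markers, Ugt8a, Ntrk2 and Mag were higher in brain (42.9%, against 5.24% of all genes). None was higher in lymph node (1 at an unadjusted p under 0.05), and the list median was 0.82. Summed levels were 4308 to 4802 on the brain arrays and 2745 to 2972 on the lymph node arrays. The brain proteoglycans Ncan (0.59 ± 0.09) and Bcan (0.40 ± 0.16), the ganglioside sialyltransferase St8sia3 (0.82 ± 0.10) and the neurotrophin receptor Ntrk3 (-0.36 ± 0.10) were not called. In lymph node 3 of 4 B cell markers (75%), 3 of 5 T cell markers (60%) and 6 of 8 stromal fibroblast markers (75%) were higher. So were 5 of 8 markers of dendritic cells and antigen presentation (62.5%), against 18% of all genes. In these 4 lists none was higher in brain (0 at an unadjusted p under 0.05 in each list). Also higher in lymph node were 4 of 6 markers of microglia and macrophages (66.7%), 3 of 9 of endothelium (33.3%) and 2 of 6 of neutrophils and platelets (33.3%). Of 4 markers of high endothelial venules 1 was higher in lymph node (25%, against 18% of all genes). In the microglia and macrophage list the 4 were Cd209b, Ccr2, Mrc1 and Clec7a. Its microglial receptor Cx3cr1 was not called at 0.38, and 1 member of this list was higher in brain at an unadjusted p under 0.05. The summed B cell markers ran 4542 to 5217 on the brain arrays and 8054 to 8981 on the lymph node arrays. Cd22, whose probe sets disagree, made up most of the brain sum. Without it, a sum added after the values were seen, the other 3 B cell markers summed to 413 to 540.3 on the brain arrays and 3361 to 3798 on the lymph node arrays. The summed T cell markers ran 1107 to 1183 on the brain arrays and 5474 to 6462 on the lymph node arrays. No marker was at 0 on any array.

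As deposited, the largest difference in favour of brain was that of Ugt8a, the enzyme that makes galactosylceramide, the main glycolipid of myelin. Its intensity was 575, 414 and 544 on the brain arrays, against 19.6, 15.8 and 32.7 on the lymph node arrays. The groups were far apart, by 4.54 ± 0.25 (limma adjusted p = 8.34e-14). The lymph node arrays lay near the bottom of the scale, and the difference was 2.98 with a floor of 64, below that of Cx3cl1 (3.78), and 3.78 with an offset of 16. Mean intensity of Ugt8a was 511 in brain and 686 in kidney, so that it is not particular to brain.

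Among 18 measured genes of glycosphingolipid synthesis, Ugt8a and 3 others were higher in brain (22.2%, against 5.24% of all genes). In lymph node 3 were higher (16.7%, near the 18% of all genes), and the list median was 0.31 against -0.01 over all genes. B3galnt1, which makes globoside, had 781, 561 and 836 on the brain arrays, against 164, 203 and 223 on the lymph node arrays. No brain array reached down to the lymph node values, and the difference was 1.88 ± 0.20 (limma adjusted p = 2.28e-08). St3gal2, which adds sialic acid to the galactose of complex gangliosides, differed by 1.47 ± 0.17, and B4galt6, which makes lactosylceramide, by 1.36 ± 0.10. St3gal2 read 906, 743 and 907 in brain and 329, 329.7 and 266 in lymph node, and B4galt6 686, 759.7 and 802 in brain and 294, 292 and 291 in lymph node, so that neither gene overlapped between the tissues.

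Steps of the same pathway ran the other way. B4galnt1, which makes GM2 and GD2 and so opens the route to complex gangliosides, had 534, 520.1 and 594 on the brain arrays, against 1380.5, 1135 and 1309 on the lymph node arrays. The lymph node arrays were all higher, with a difference of -1.21 ± 0.13 (limma adjusted p = 3.44e-08). Ugcg, the glucosylceramide synthase that feeds nearly all of these lipids, differed by -1.04 ± 0.12, and B3gnt5, which starts the lacto-series, by -1.56 ± 0.16. B4galnt1 fell short of the size threshold with quantile normalization (-0.69). Ugcg did so without brain replicate 2 (-0.95), without lymph node replicate 1 (-0.99), with array weights (-0.98) and with either rescaling (-0.50 and -0.88). Other ganglioside sialyltransferases of the list were not called: St3gal5, the GM3 synthase, differed by 0.70 ± 0.11, St8sia3 by 0.82 ± 0.10, St8sia5 by 0.61 ± 0.10, St6galnac5 by 0.75 ± 0.20 and St8sia1, the GD3 synthase, by 0.06 ± 0.09.

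Of 18 measured sialyltransferases, which finish the outer ends of glycans, St3gal2 was higher in brain (5.56%) and 3 were higher in lymph node (16.7%), shares near the 5.24% and 18% of all genes (list median 0.07). St6gal1, which makes the alpha-2,6-linked sialic acid that the B cell lectin CD22 binds, had 266, 192 and 272 on the brain arrays, against 855, 819 and 997 on the lymph node arrays. All lymph node arrays lay above all brain arrays, with a difference of -1.88 ± 0.14 (limma adjusted p = 3.09e-11), or -1.22 with its probe sets averaged. St8sia4, a polysialyltransferase known for modifying the neural cell adhesion molecule and, in leukocytes, Ccr7, had 251, 166 and 284 on the brain arrays, against 1215, 1322 and 1380.1 on the lymph node arrays. It too was higher in lymph node without overlap, with a difference of -2.52 ± 0.18 (limma adjusted p = 1.35e-11), while the other measured polysialyltransferase, St8sia2, had 457, 475 and 449.6 in brain and 402, 394 and 387 in lymph node and differed by 0.22 ± 0.10. St3gal6, which contributes to selectin ligands, differed by -1.21 ± 0.16 and lost its call with quantile normalization (-0.87).

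Fut9, which builds the Lewis x structure in brain, was the 1 of 11 measured fucosyltransferases that was called (9.09%, against 5.24% of all genes higher in brain). It had 124, 118 and 203 on the brain arrays, against 23.3, 21.6 and 29.1 on the lymph node arrays. The groups did not overlap and differed by 2.55 ± 0.26 (limma adjusted p = 8.42e-09), with both tissues below the human probe set median and a difference of 1.17 with a floor of 64. Fut8, which adds the core fucose of N-glycans, was not called at 0.74 ± 0.17, nor was Fut7, the selectin-ligand fucosyltransferase, at -0.82 ± 0.12.

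Of 14 galactosyltransferases and enzymes of poly-N-acetyllactosamine, 2 were higher in each tissue (14.3%, against 5.24% of all genes in brain and 18% in lymph node). B4galt1, the galactosyltransferase that extends most N-glycans, had 138, 87.9 and 136 on the brain arrays, against 635, 575 and 681 on the lymph node arrays. Its brain mean was the lowest of the 9 tissues, and the difference was -2.41 ± 0.18 (limma adjusted p = 3.72e-11). B3gnt2, which extends poly-N-acetyllactosamine chains, was higher in lymph node, with a difference of -1.10 ± 0.12, and lost its call with quantile normalization (-0.59), median centring (-0.94) and averaged probe sets (-0.70). On the brain side stood B4galt6 and B4gat1. B4gat1 is a glucuronyltransferase of the O-mannose glycan of dystroglycan, with 1109, 1111 and 1101 in brain and 438, 396 and 358 in lymph node and a difference of 1.48 ± 0.14 (limma adjusted p = 2.74e-09).

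The early steps of N-glycan branching were higher in lymph node for 3 of 6 measured genes (50%, against 18% of all genes). None was higher in brain (2 at an unadjusted p under 0.05), and the list median was -0.50. Man2a1, the Golgi mannosidase that trims the chain, read 235, 223 and 269.9 in brain and 679.96, 704 and 732 in lymph node and differed by -1.54 ± 0.15. Mgat1 and Mgat2, the first branching enzymes, differed by -1.08 ± 0.12 and -1.16 ± 0.21. Both lost their calls without brain replicate 2 (-0.92 and -0.99) and with quantile normalization (-0.56 and -0.79), and Mgat1 also without lymph node replicate 1 (-0.998), with median centring (-0.92) and with array weights (-0.89). Mgat3, the bisecting enzyme that is abundant in brain, was not called at 0.45 ± 0.11. Of 10 genes of mucin O-glycan synthesis, Galnt1, which starts such chains, was higher in lymph node (10%, below the 18% of all genes). It differed by -1.15 ± 0.19 and lost its call without brain replicate 2 (-0.996) and with either rescaling (-0.89 and -0.99).

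Of 23 measured genes of glycosaminoglycan synthesis and sulfation, 2 were higher in brain (8.7%, against 5.24% of all genes). None was higher in lymph node (1 at an unadjusted p under 0.05), and the list median was 0.22. Extl2, an exostosin-like transferase that acts on the linker of glycosaminoglycan chains, had 679.9, 577 and 690.1 on the brain arrays, against 126, 144 and 174 on the lymph node arrays. Its groups were well apart, by 2.14 ± 0.13 (limma adjusted p = 8.34e-13). Hs6st2, which sulfates heparan sulfate at the 6-O position, had 189, 140.03 and 185 in brain and 49.1, 48.5 and 47.5 in lymph node, both below the human probe set median, and differed by 1.81 ± 0.17.

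**Figure D2:**
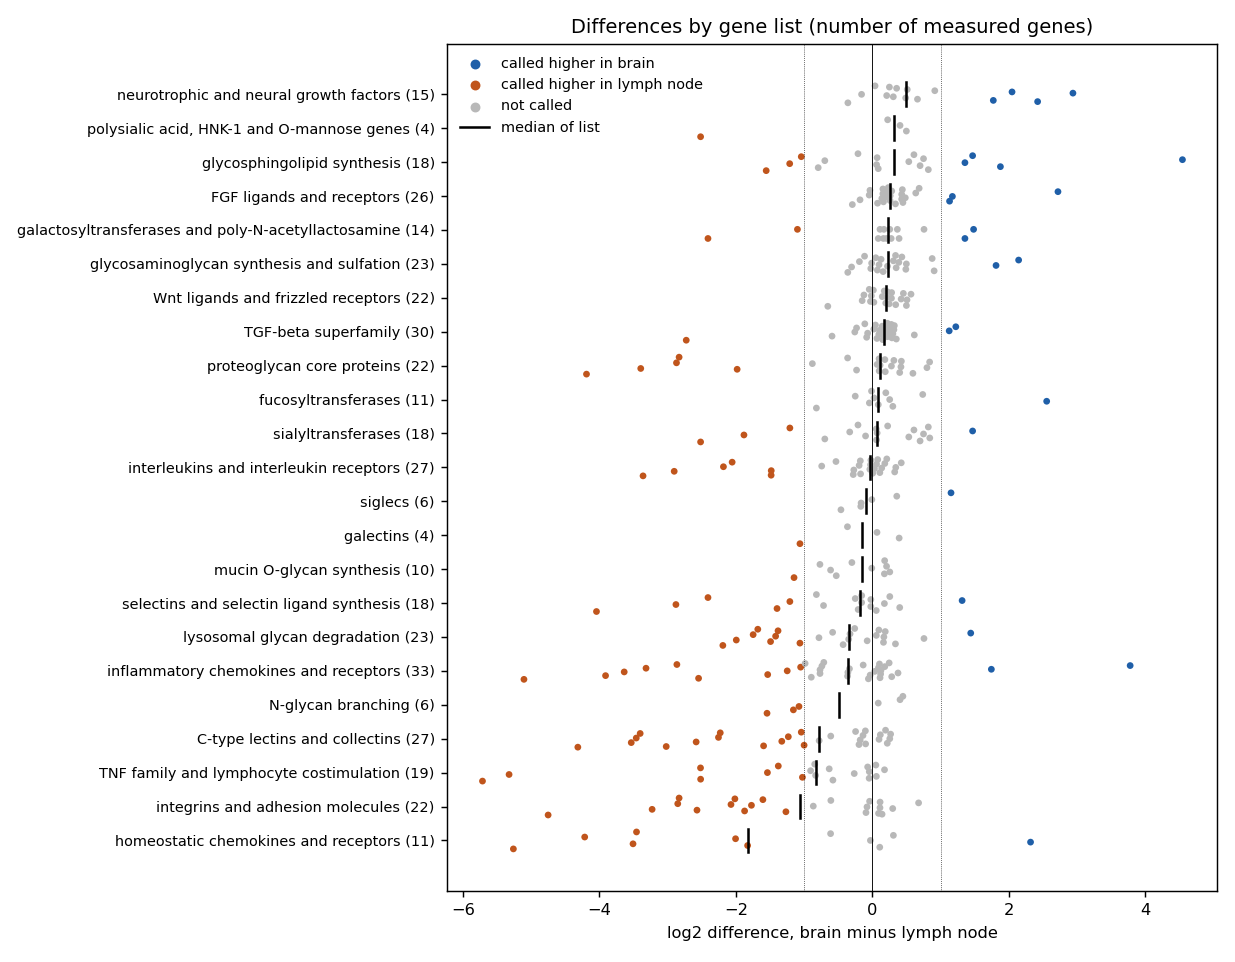
Log2 difference of each measured gene, brain minus lymph node, for the 23 gene lists, with 1 point per gene, the number of genes in brackets and a bar at the list median. The dotted lines mark the size threshold of 1. Lists of lectins, integrins, lymphocyte costimulation and homeostatic chemokines extend to the left, higher in lymph node, while neural growth factors lie mostly to the right.

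Growth factors and receptors of the nervous system made up the next group. Of 15 measured genes of the neurotrophic and neural growth factor list, 4 were higher in brain (26.7%, against 5.24% of all genes). None was higher in lymph node (1 at an unadjusted p under 0.05), and the list median was 0.49. The 4 were Ptn, Peg3, Chga and Ntrk2, of which Peg3 and Chga are neither growth factors nor their receptors. Ptn, the heparin-binding growth factor pleiotrophin, had 1776, 1092 and 1482 on the brain arrays, against 153, 189 and 220.6 on the lymph node arrays. The lowest brain array stood far above the highest lymph node array, and the difference was 2.94 ± 0.15 (limma adjusted p = 1.46e-14). Peg3, an imprinted zinc finger gene, had 580.1, 892 and 1035 on the brain arrays, against 138, 146 and 174 on the lymph node arrays. It differed by 2.42 ± 0.18 (limma adjusted p = 1.91e-11), with brain replicate 1 the lowest of its group. Ntrk2, the receptor of brain-derived neurotrophic factor, had 55, 125 and 142 on the brain arrays, against 31.2, 26.7 and 29.4 on the lymph node arrays. These are low values, and its difference of 1.77 ± 0.23 (limma adjusted p = 5.37e-07) shrank to 0.70 with a floor of 64, where it was no longer called. Its ligand Bdnf, at 0.91 ± 0.11, lay just under the size threshold.

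Chga, chromogranin A of neuroendocrine secretory granules, had 874, 790.1 and 893 on the brain arrays, against 204, 207 and 207 on the lymph node arrays, a difference of 2.05 ± 0.12 (limma adjusted p = 2.71e-13). Of 26 measured fibroblast growth factor genes and receptors, 3 were higher in brain (11.5%, against 5.24% of all genes). None was higher in lymph node (1 at an unadjusted p under 0.05), and the list median was 0.26. Fgf12 and Fgf13 belong to the intracellular members that bind voltage-gated sodium channels. Fgf12 had 513, 244.2 and 499 on the brain arrays, against 68.1, 50.1 and 64.2 on the lymph node arrays, with brain replicate 2 well below the other brain arrays but above all lymph node arrays. Its difference was 2.72 ± 0.20 (limma adjusted p = 2.46e-11). Fgf13 differed by 1.13 ± 0.11 and lost its call without brain replicate 3 (0.97). Fgf1, the acidic growth factor, differed by 1.17 ± 0.12, and the receptor Fgfr1 was not called at 0.68 ± 0.10.

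Other genes among the 15 with the largest differences in favour of brain were Tnfrsf19, Phactr1 and Hk1. Tnfrsf19, a receptor of the TNF family, had 484, 292 and 544 in brain and 55.2, 73.2 and 85.7 in lymph node and differed by 2.60 ± 0.23. Phactr1, which binds actin and protein phosphatase 1, had 2919, 2452 and 2419 in brain and 452, 439 and 449 in lymph node and differed by 2.53 ± 0.23, or 3.35 with quantile normalization. Hk1, the hexokinase that brain relies on, had 1299, 1298 and 1543 in brain and 429, 433 and 368 in lymph node and differed by 1.75 ± 0.50, or 2.54 with quantile normalization. In the TGF-beta superfamily 2 of 30 genes were higher in brain (6.67%, near the 5.24% of all genes). They were Gdf1 (1.22 ± 0.18, and 2.35 with probe sets averaged) and the procollagen proteinase Bmp1 (1.13 ± 0.17, and 0.97 without brain replicate 2 and also with array weights, not called in either). In the same family Tgfb1, the cytokine of immune regulation, was the 1 gene higher in lymph node (3.33%, against 18% of all genes). It had 87.6, 105 and 107 in brain and 878, 689 and 472 in lymph node, a difference of -2.73 ± 0.26 (limma adjusted p = 2.89e-09). None of 22 measured Wnt ligands and frizzled receptors was called with limma, although 9 were higher in brain and 1 higher in lymph node at an unadjusted p under 0.05 (median 0.20, range -0.65 to 0.57).

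Among siglecs, the sialic acid-binding lectins, Mag was the 1 of 6 that was called (16.7%, against 5.24% of all genes higher in brain). Mag, the myelin-associated glycoprotein that binds gangliosides on axons, had 933, 857 and 1001 on the brain arrays, against 432, 401 and 421 on the lymph node arrays. Its groups did not overlap and differed by 1.15 ± 0.10 (limma adjusted p = 9.67e-10), or 1.80 with its probe sets averaged. Cd22, the B cell siglec, was high in both tissues by its chosen probe set, with 4056, 4093 and 4804 in brain and 5183, 4693 and 4625 in lymph node and a difference of -0.17 ± 0.20, whereas its other probe set differed by -3.39. The level of Cd22 is therefore not settled by these probe sets.

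A few chemokines stood on the brain side. Cx3cl1, the membrane-bound chemokine fractalkine that neurons display to microglia, had 2280.1, 2453 and 2487 on the brain arrays, against 177, 176 and 173 on the lymph node arrays. The arrays of each tissue were tightly grouped, and the difference was 3.78 ± 0.09 (limma adjusted p = 3.22e-20), or 4.64 with quantile normalization. Its receptor on microglia, Cx3cr1, had 499, 529 and 575 in brain and 417, 403 and 415 in lymph node and was not called at 0.38 ± 0.10. Ccl27a, a chemokine best known from skin that has near-identical gene copies which may share its probe set, had 1005, 903 and 1007 on the brain arrays, against 208, 211 and 168 on the lymph node arrays, a difference of 2.32 ± 0.16 (limma adjusted p = 1.17e-11). Cxcl14, a chemokine of epithelia and brain, had 954, 646 and 750.1 in brain and 234, 229 and 230.5 in lymph node and differed by 1.74 ± 0.15.

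Promoters of 2 of these genes, Cx3cl1 and Chga, are shown because they lead the chemokine and secretory granule differences and hold motifs that a search found. Each is the 250 bases before the start of the gene, from RefSeq (GRCm38.p6), 5' to 3' on the strand of the gene. Cx3cl1 lies at chr8:94771930-94772179 on the plus strand and Chga at chr12:102554691-102554940 on the plus strand. Capitals mark matches, on either strand, to the GC box GGGCGG in both and to a cAMP-response-like motif, TGACGTAA, in Chga. In Cx3cl1 they also mark the letters of the TATA box, TATAAA, which are the last bases before the start. The search was by letters, and position was not part of it. No match overlapped one of another motif.
Cx3cl1: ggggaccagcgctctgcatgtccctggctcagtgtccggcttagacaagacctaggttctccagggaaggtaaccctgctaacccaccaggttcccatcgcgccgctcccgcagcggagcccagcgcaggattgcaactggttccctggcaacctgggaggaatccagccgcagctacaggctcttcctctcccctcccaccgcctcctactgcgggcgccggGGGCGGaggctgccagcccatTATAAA
Chga: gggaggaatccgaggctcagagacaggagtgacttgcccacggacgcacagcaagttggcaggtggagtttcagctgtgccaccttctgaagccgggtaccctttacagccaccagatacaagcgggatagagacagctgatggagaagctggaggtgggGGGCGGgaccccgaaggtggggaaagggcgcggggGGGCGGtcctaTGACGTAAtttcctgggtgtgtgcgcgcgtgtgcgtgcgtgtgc
Over the window of 300 bases that runs to 50 bases past the start, TGACGTAA was present in 2 of 25 promoters of genes higher in brain (8%), in 0 of 75 of genes higher in lymph node, and in 1.13% of the 444 compared genes with a promoter entry. GGGCGG was present in 72%, 50.7% and 54.7% of the same groups, and TATAAA in 20%, 17.3% and 14.4%. Over all 27025 promoters of the table the shares were 0.581%, 38.2% and 15.7%. A match describes the sequence and is not evidence of binding.

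Turning to lymph node, Ltb, the lymphotoxin subunit that drives lymphoid organ structure, had the largest difference of the 573 genes. It had 115, 105 and 102 on the brain arrays, against 6250.2, 5432 and 5223 on the lymph node arrays. The lymph node arrays were 52.5-fold higher on average, a difference of -5.71 ± 0.16 (limma adjusted p = 2.64e-19), with brain below the human probe set median. Of 19 measured genes of the TNF family and lymphocyte costimulation, 7 were higher in lymph node (36.8%, against 18% of all genes). None was higher in brain (0 at an unadjusted p under 0.05), and the list median was -0.83. Cd48, the adhesion and costimulatory ligand of leukocytes, had 117, 72.2 and 93.9 on the brain arrays, against 3519, 3803 and 3809 on the lymph node arrays. No values overlapped, and the difference was -5.32 ± 0.20 (limma adjusted p = 8.05e-17), or -4.72 with quantile normalization. The TNF receptor Tnfrsf1b (-2.52 ± 0.14), the dendritic cell marker Cd83 (-2.52 ± 0.18), the death receptor Fas (-1.54 ± 0.16) and the lymphocyte receptor Cd27 (-1.38 ± 0.17) followed. Tnfsf13b, the B cell survival factor BAFF, differed by -1.03 ± 0.13 and lost its call without brain replicate 1 (-0.97) or lymph node replicate 3 (-0.93), with an offset of 16 (-0.96) and with either rescaling (-0.82 and -0.87), and Cd27 lost its call with quantile normalization (-0.94).

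Cd74, the invariant chain that escorts class II molecules in antigen-presenting cells, had 153, 255 and 144 on the brain arrays, against 8468, 7827 and 6853 on the lymph node arrays. Brain replicate 2 was the highest of the brain arrays yet far under every lymph node array. The difference was -5.43 ± 0.20 (limma adjusted p = 4.03e-17).

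Homeostatic chemokines, which place lymphocytes in lymphoid tissue, were the list with the lowest median, -1.83, of the 23 lists. Of 11 measured genes 6 were higher in lymph node (54.5%, against 18% of all genes). Ccl27a was higher in brain (9.09%, against 5.24% of all genes). Cxcl13, the follicular chemokine that attracts B cells, had 90.8, 95.9 and 88.8 on the brain arrays, against 3333, 3730.1 and 3507 on the lymph node arrays. The arrays of each tissue were close together and the tissues differed by -5.26 ± 0.15 (limma adjusted p = 4.67e-19), or -4.53 with quantile normalization. Its receptor Cxcr5 had 137, 118 and 139 in brain and 452, 474 and 468 in lymph node and differed by -1.83 ± 0.11.

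Ccl21b, the T zone chemokine, had 503, 478 and 528 on the brain arrays, against 10601, 8909 and 8623 on the lymph node arrays. The difference was -4.22 ± 0.15 (limma adjusted p = 4.03e-17), and near-identical Ccl21 copies may share this signal. Its receptor Ccr7, which brings T cells and dendritic cells to the T zone, had 188, 146 and 192 on the brain arrays, against 1855, 2201 and 1903 on the lymph node arrays. Receptor and ligand were both higher in lymph node without overlap, with a difference of -3.51 ± 0.13 (limma adjusted p = 5.57e-17) for Ccr7, or -2.92 with quantile normalization. Cxcl12, made by stromal cells, differed by -3.46 ± 0.20 (-2.82 with quantile normalization), and Ccr6, a receptor of B cells and dendritic cells, by -2.01 ± 0.13.

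Of 33 measured inflammatory chemokines and receptors, 9 were higher in lymph node (27.3%, against 18% of all genes). Cx3cl1 and Cxcl14 were higher in brain (6.06%, near the 5.24% of all genes), and the list median was -0.36. Ccl5, made by T cells and natural killer cells, had 136, 201 and 122 on the brain arrays, against 5076, 5137 and 5194 on the lymph node arrays. The groups differed by -5.11 ± 0.20 (limma adjusted p = 1.56e-16), but by -3.01 with its probe sets averaged, since the other set differed by -0.92. Ccl8, a monocyte-attracting chemokine, had 251, 286 and 266 on the brain arrays, against 2152, 4011 and 4270.1 on the lymph node arrays. Lymph node replicate 1 was the lowest of its group and still above all brain arrays, and the difference was -3.64 ± 0.18 (limma adjusted p = 1.46e-14). Ccr2, the receptor of inflammatory monocytes, had 48.8, 22.5 and 40.5 in brain and 392, 697 and 552 in lymph node and differed by -3.91 ± 0.25 (-3.06 with a floor of 64 and -3.13 with probe sets averaged).

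Cxcl9 and Cxcl10, both induced by interferon, were also higher in lymph node, and Cxcl11, the third ligand of their receptor, was not called at 0.09 ± 0.14. Cxcl9 differed by -3.32 ± 0.17 and Cxcl10, with 133, 143 and 119 in brain and 536, 1068 and 787 in lymph node, by -2.55 ± 0.19, while the receptor Cxcr3 was not called at -0.03 ± 0.15. Cxcr6, a receptor of effector lymphocytes, differed by -2.87 ± 0.17. Ccl7 rested on 1 array: it had 224, 227 and 262 on the brain arrays, against 409, 887 and 328 on the lymph node arrays, and its difference of -1.05 ± 0.20 was -0.63 and not called without lymph node replicate 2, nor was it called with either rescaling (-0.84 and -0.89). Cxcl1 showed the same array as high, with 147, 146 and 134 in brain and 229, 634 and 154 in lymph node, and was not called at -0.99 ± 0.27.

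Promoters of Ltb and Cxcl10 are shown as lymph node counterparts, again 250 bases before the start from RefSeq (GRCm38.p6) and 5' to 3' on the strand of the gene. Both hold motifs that the search found, and Cxcl10 is not among the 15 genes with the largest differences. The promoter of Cxcl13, which is among them, held a TATA box match and is not printed. Ltb lies at chr17:35194257-35194506 on the plus strand and Cxcl10 at chr5:92348890-92349139 on the minus strand. Capitals mark, in Ltb, a match to the NF-kappaB-like motif (GGG, any 2 bases, then TTTCC) on the opposite strand and, in Cxcl10, a match to the interferon-response-like motif (GAAA, any 2 bases, then GAAA), both searched on both strands, and neither overlaps another motif.
Ltb: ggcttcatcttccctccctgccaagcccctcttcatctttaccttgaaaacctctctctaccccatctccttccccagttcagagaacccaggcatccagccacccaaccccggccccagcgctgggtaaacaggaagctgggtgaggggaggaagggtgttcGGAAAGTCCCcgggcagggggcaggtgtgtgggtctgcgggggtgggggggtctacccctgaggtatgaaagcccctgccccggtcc
Cxcl10: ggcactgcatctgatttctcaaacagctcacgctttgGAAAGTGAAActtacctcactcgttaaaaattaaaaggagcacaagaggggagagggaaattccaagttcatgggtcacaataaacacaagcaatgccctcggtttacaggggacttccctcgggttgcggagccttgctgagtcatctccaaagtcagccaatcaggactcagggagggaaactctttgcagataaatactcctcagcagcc
The NF-kappaB-like motif was present in 4% of the 25 promoters of genes higher in brain, 5.33% of the 75 of genes higher in lymph node, 4.05% of the 444 compared genes and 1.89% of all promoters. The interferon-response-like motif was present in 12%, 6.67%, 5.41% and 3.99% of these groups. In these windows neither motif was thus limited to the promoters of genes higher in lymph node.

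**Figure D3:**
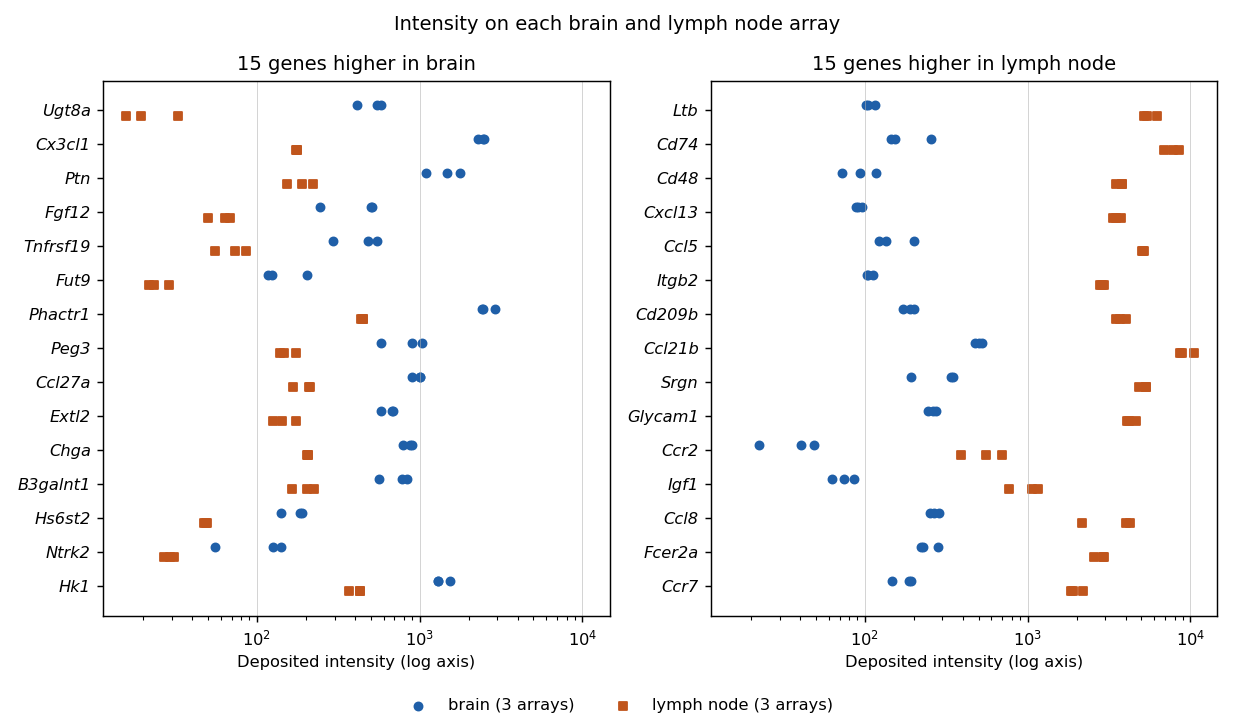
Deposited intensity on each of the 3 brain arrays (circles) and the 3 lymph node arrays (squares), on a log axis, for the 15 genes with the largest differences in each direction. In all 30 genes the circles and squares occupy separate ranges, with a wide spread among brain arrays in Ntrk2 and among lymph node arrays in Ccl8.

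The C-type lectins had more members called higher in lymph node than any of the other lists, but not the largest share. That share was 48.1%, against 18% of all genes. It was 54.5% for homeostatic chemokines and 50% for both adhesion molecules and N-glycan branching. Of 27 measured C-type lectins and collectins, 13 were higher in lymph node and none in brain (0 at an unadjusted p under 0.05; list median -0.78). Cd209b, the SIGN-R1 lectin of macrophages that captures microbial sugars, had 200.1, 173 and 190.5 on the brain arrays, against 3471, 4045 and 3713 on the lymph node arrays. The groups did not overlap, with a difference of -4.32 ± 0.14 (limma adjusted p = 3.68e-18), or -3.71 with quantile normalization. Fcer2a, the low-affinity IgE receptor of B cells, had 227, 282 and 220.2 on the brain arrays, against 2965, 2547 and 2902 on the lymph node arrays. It differed by -3.53 ± 0.19 (limma adjusted p = 4.68e-14), or -2.90 with quantile normalization.

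Several of these lectins were at low signal in brain, with brain replicate 2 the lowest. The mannose receptor Mrc1 had 117, 50.1 and 99.6 in brain and 746, 851 and 1084 in lymph node and differed by -3.40 ± 0.29. Clec7a, the beta-glucan receptor dectin-1, had 143, 55.3 and 125 in brain and 633, 804 and 1039 in lymph node and differed by -3.02 ± 0.29. Clec4a2, an inhibitory lectin of myeloid cells, had 49.2, 17.7 and 47.5 in brain and 195, 509 and 559 in lymph node and differed by -3.46 ± 0.42, which was -2.57 with a floor of 64 and -2.44 with probe sets averaged.

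The remaining called lectins were Klrd1 of natural killer cells (-2.58 ± 0.12), the B cell lectin Cd72 (-2.26 ± 0.27, and -2.85 without brain replicate 1), the endocytic receptor Ly75 (-2.23 ± 0.17, and -1.26 with a floor of 64), Clec10a (-1.59 ± 0.11), the activation marker Cd69 (-1.33 ± 0.21), Cd209e (-1.23 ± 0.11), Cd209a (-1.04 ± 0.11) and Clec5a (-1.001 ± 0.10). Cd69 lost its call with quantile normalization (-0.85), and Cd209a without brain replicate 1 (-0.99) and with either rescaling (-0.62 and -0.88). Clec5a lay nearest inside the size threshold and lost its call without brain replicate 1 (-0.99), without brain replicate 3 (-0.97), without lymph node replicate 3 (-0.96), with an offset of 16 (-0.96) and with either rescaling (-0.80 and -0.84). Psmb3, a proteasome subunit, lay nearest outside it at -0.995 ± 0.21. On the brain side Bmp1 lay nearest inside (1.13) and Vegfb, a vascular growth factor, nearest outside (0.99 ± 0.14). Of 4 measured galectins, Lgals8 was higher in lymph node (25%, against 18% of all genes). It differed by -1.06 ± 0.16, and by -0.52 with quantile normalization and -0.90 with median centring, not called in either.

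Adhesion molecules of leukocytes and vessels were higher in lymph node for 11 of 22 measured genes (50%, against 18% of all genes). None was higher in brain (2 at an unadjusted p under 0.05), and the list median was -1.07. Itgb2, the beta-2 integrin chain of leukocytes, had 112, 105 and 103 on the brain arrays, against 2799, 2953 and 2873 on the lymph node arrays. Arrays of each tissue agreed closely, and the tissues differed by -4.75 ± 0.15 (limma adjusted p = 3.68e-18), or -4.000 with quantile normalization. Its partner chains Itgal (-2.07 ± 0.18) and Itgax (-1.27 ± 0.10, and -2.16 with probe sets averaged) and its ligands Icam2 (-3.23 ± 0.14) and Icam1 (-1.60 ± 0.13, and -2.43 with probe sets averaged) were higher in lymph node too. So were the gut-homing chain Itgb7 (-1.87 ± 0.12), its partner Itgae (-1.77 ± 0.16), Vcam1 (-2.57 ± 0.19, and -1.91 with quantile normalization), Itgb1 (-2.02 ± 0.19, and -1.34 with it) and the endothelial Pecam1 (-2.85 ± 0.16). L1cam, the axonal adhesion molecule, was not called at 0.68 ± 0.12. Itgax lost its call with quantile normalization (-0.84).

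The selectin system was represented by 18 genes, of which 5 were higher in lymph node (27.8%, against 18% of all genes). Chst2 was higher in brain (5.56%, near the 5.24% of all genes), and the list median was -0.18. Glycam1, the mucin of high endothelial venules that L-selectin binds, had 275, 246 and 263 on the brain arrays, against 4638, 4218 and 4063 on the lymph node arrays. The brain values lay a little above the human probe set median, and the difference was -4.04 ± 0.14 (limma adjusted p = 1.77e-17), or -3.36 with probe sets averaged. Selplg, the P-selectin ligand of leukocytes, had 549, 516 and 546 in brain and 3813, 4244 and 3807 in lymph node and differed by -2.88 ± 0.16 (-2.22 with quantile normalization). Emcn, the sialomucin endomucin, differed by -1.40 ± 0.17, and the remaining called members were B4galt1 and St3gal6.

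Sulfotransferases of the selectin list were also measured. Chst2, which sulfates N-acetylglucosamine on selectin ligands and on keratan sulfate, had 543, 588 and 633 on the brain arrays, against 279.9, 243.8 and 193 on the lymph node arrays. It was higher in brain, by 1.31 ± 0.13 (limma adjusted p = 2.35e-09). Chst4, the sulfotransferase of high endothelial venules, had 151, 234 and 176 in brain and 337, 298 and 275 in lymph node and was not called at -0.72 ± 0.17, and the venule addressin Madcam1 was not called at -0.16 ± 0.10. The 4 measured venule markers had summed levels of 921 to 1039 on the brain arrays and 5089 to 5709.8 on the lymph node arrays. Glycam1 made up most of the lymph node sum, with a mean of 4306, against 261 in brain. The other markers of this list, Madcam1, Chst4 and Fut7, were not called.

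Of 22 measured proteoglycan core proteins, 5 were higher in lymph node (22.7%, near the 18% of all genes) and none was higher in brain (7 at an unadjusted p under 0.05; list median 0.11). Srgn, serglycin of leukocyte granules, had 349, 192 and 339 on the brain arrays, against 4838, 5359.7 and 5344 on the lymph node arrays. The groups did not overlap and differed by -4.19 ± 0.21 (limma adjusted p = 2.54e-14). Decorin, Dcn, a small matrix proteoglycan of fibroblasts, had 689, 594 and 603 in brain and 6004, 6675 and 7164 in lymph node and differed by -3.39 ± 0.21. Biglycan, Bgn (-2.87 ± 0.20), the hyaluronan receptor Cd44 (-2.83 ± 0.14) and lumican, Lum (-1.98 ± 0.30), followed, with Lum lowest on lymph node replicate 1 at 430.4. With quantile normalization Bgn and Cd44 were both at -2.16. The glypicans Gpc1 (0.84 ± 0.12) and Gpc5 (0.80 ± 0.10) were not called.

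Of 27 measured interleukins and their receptors, 6 were higher in lymph node (22.2%, against 18% of all genes) and none in brain (3 at an unadjusted p under 0.05; list median -0.04), and 4 of these 6 were receptor chains. Il7r, the receptor of the survival cytokine of T cells, had 260.2, 255 and 274 on the brain arrays, against 2869.7, 2929.8 and 2347 on the lymph node arrays. It differed by -3.36 ± 0.14 (limma adjusted p = 7.52e-16), or -2.71 with quantile normalization. Il2rb (-2.90 ± 0.13), Il17ra (-2.06 ± 0.15) and Il10ra (-1.48 ± 0.14, and -0.99 with quantile normalization, not called) were the other receptors. The cytokines were Il16 (-2.18 ± 0.13) and Il15 (-1.48 ± 0.19). Il2, Il4, Il5 and Il10, products of activated T cells, were not called, at 0.21, -0.04, 0.34 and 0.03.

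Lysosomal enzymes of glycan breakdown were higher in lymph node for 8 of 23 measured genes (34.8%, against 18% of all genes). Gaa was higher in brain (4.35%, near the 5.24% of all genes), and the list median was -0.35. Gusb, the beta-glucuronidase, had 267, 193 and 225 on the brain arrays, against 915, 996 and 1215 on the lymph node arrays. Its groups did not overlap and differed by -2.19 ± 0.14 (limma adjusted p = 1.44e-12). Man2b1, the lysosomal mannosidase, differed by -1.99 ± 0.17, and Aga, which cleaves the link of N-glycans to asparagine, by -1.75 ± 0.27. Among these 8 were Gm2a, Hexa, Glb1 and Ctsa, which take part in ganglioside breakdown, while the sialidases Neu1 (-0.08 ± 0.15), Neu2 (0.06 ± 0.11) and Neu3 (0.16 ± 0.18) were not called. Gm2a, the GM2 activator, differed by -1.68 ± 0.28, Hexa by -1.38 ± 0.17, Glb1 by -1.06 ± 0.15 and Ctsa, the protective protein of Glb1, by -1.49 ± 0.16. With quantile normalization Hexa (-0.89), Glb1 (-0.73), Ctsa (-0.38) and Manba (-0.97, against -1.42 ± 0.20 as deposited) lost their calls, and Glb1 also did without brain replicate 2 (-0.93) or lymph node replicate 3 (-0.95), with median centring (-0.90) and with array weights (-0.90). Gaa, the enzyme of lysosomal glycogen breakdown, had 1385, 1191 and 1316 on the brain arrays, against 507, 440.2 and 487 on the lymph node arrays. It differed by 1.44 ± 0.11 (limma adjusted p = 4.43e-11), or 2.20 with quantile normalization. Galc, which degrades the myelin lipid that Ugt8a makes, was not called at 0.34 ± 0.18.

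Of the 6 genes with the highest mean intensities among those with a difference under 0.25 in size, Cd22 is set aside here because its probe sets disagree. The others were the RNA-binding protein Pcbp1 (2109, 1490.3 and 1998 in brain and 1962, 1684 and 1424 in lymph node), the chaperone of glycoprotein folding Canx (1390.4, 1336 and 1453 in brain and 1262, 1369 and 1699.8 in lymph node), Ugp2, which makes UDP-glucose (1433, 1112 and 1343 in brain and 1109.7, 1177 and 1252 in lymph node), the chondroitin sulfotransferase Chst12 (882, 1085 and 995 in brain and 1102, 1099 and 1169 in lymph node) and Wnt1 (1072, 1018 and 1005 in brain and 1084, 1046 and 1066 in lymph node). Quantile normalization moved Pcbp1, Canx and Ugp2 to 1.32, 1.04 and 1.07, higher in brain.

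The other 7 tissues gave a level to set each of the pair against. Both tissues were set against the same 7, so that the values stand side by side and are not independent. In that fit 27 genes were higher (4.71%) and 49 lower (8.55%) in brain, and 56 were higher (9.77%) and 6 lower (1.05%) in lymph node. On the log2 scale Ptn was 3.54 above the other 7 tissues in brain and 0.60 in lymph node, and Cx3cl1 was at 3.28 in brain and -0.50 in lymph node. Glycam1 was at -0.03 in brain and 4.02 in lymph node, and Cd209b at -0.24 in brain and 4.08 in lymph node. Ltb was at -2.36 in brain and 3.35 in lymph node, and Cd48 at -2.53 in brain and 2.80 in lymph node. These are distances from the mean of the 7 tissues, which include spleen, thymus and bone marrow. The mean log2 level of Ltb was 6.742 in brain, 6.821 in testis, 6.955 in kidney and 7.175 in liver, against 12.02 in spleen. That of Cd48 was 6.532 in brain, 7.151 in testis, 7.403 in liver and 7.493 in kidney, against 11.78 in spleen.

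Of the 30 genes higher in brain, brain had the highest mean of the 9 tissues in 19, and of the 103 higher in lymph node, lymph node had the highest in 41 and brain had the lowest in 35. Among the 15 genes with the largest differences in favour of brain, some had a higher mean elsewhere. These were Ugt8a and Fut9 in kidney, Tnfrsf19 in lung, Ccl27a and Hk1 in testis and Hs6st2 in spleen. Tgfb1 was at -1.96 against the other 7 tissues in brain and 0.77 in lymph node. The map of tissue means shows these patterns for the 30 genes with the largest differences.

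**Figure D4:**
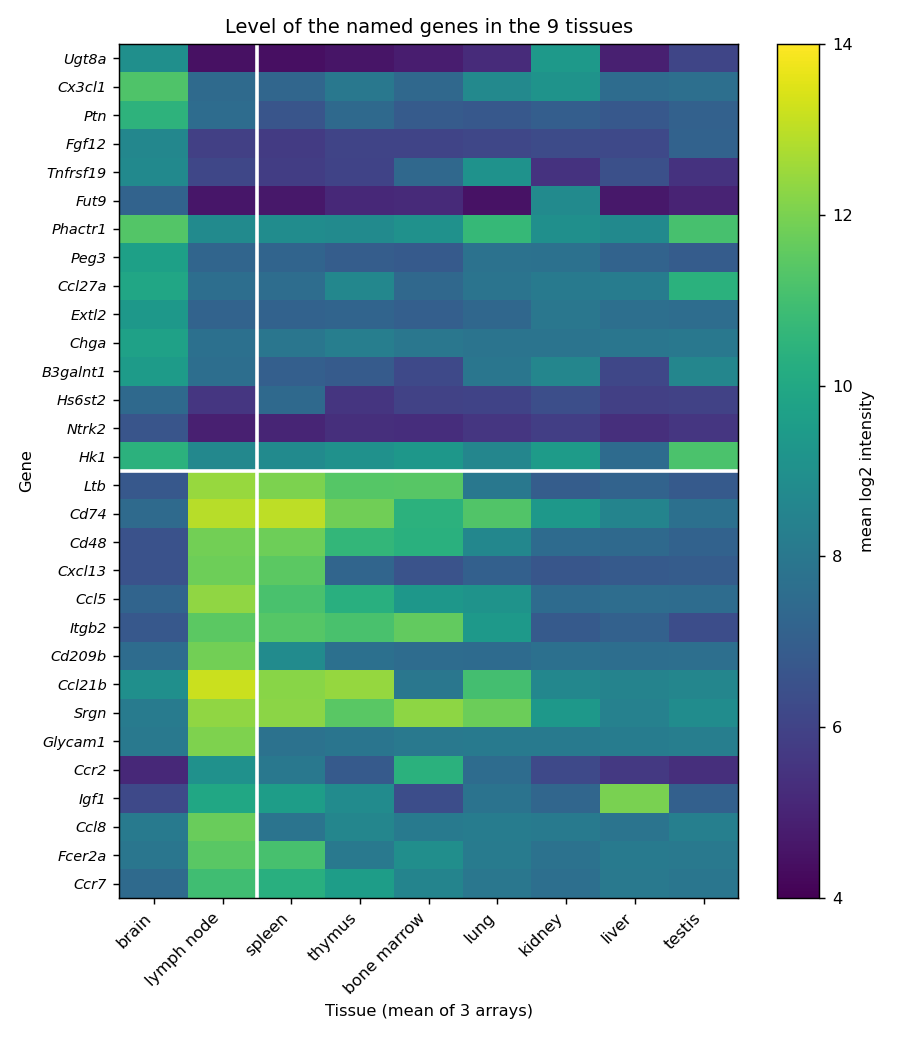
Mean log2 intensity of 3 arrays (colour) for the 15 genes with the largest differences in favour of brain (upper block) and of lymph node (lower block) in each of the 9 tissues. Brain is bright alone in genes such as Ptn and Chga, and lymph node shares its high levels with spleen in Cd74, Cd48 and Cxcl13, while Glycam1 and Ccl8 are bright in lymph node.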

How the data were processed

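Total RNA, labelled with biotin, was hybridised to a custom 1-colour Affymetrix glycogene array, per the labels. The authors deposited 1 linear intensity per probe set and array (1813 probe sets); of the processing, the summary method, background correction and scaling are not given in the sources consulted. The platform annotation named the probe sets, and mouse genes were matched to RefSeq (GRCm38.p6). Of these, 702 mouse sets gave 573 genes; 57 control sets were left out, and 839 human sets described cross-species signal. Intensities under 16 were raised to 16 (1 value on the 6 arrays) and log2 taken.

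limma 3.58.1 in R 4.3.3 (lmFit, eBayes) took 1 coefficient per tissue in a fit of all 27 arrays, so that all tissues share 1 estimate of the spread, with Benjamini-Hochberg adjustment over the 573 genes. The number of arrays limits the precision. Named were the 15 called genes with the largest difference in each direction, measured members of the gene lists, the 6 highest genes with a difference under 0.25, and the genes nearest the size threshold. The members and lists were chosen with earlier results of these data known. Tested on simulated data for brain minus lymph node over 573 genes, the script called 100% of genes changed by 1.5, 2 or 3 and 2% of those changed by 0.5 on the log2 scale, and 0 of 373 unchanged genes. The simulated noise was normal and independent between arrays, with no other tissue differences and no change close to the size threshold. This test therefore says nothing about scaling or RNA quality. Alternatives were other scalings, floors, filters and probe set rules, other fits, and leaving out each of the 6 arrays. RefSeq promoters matched 444 of the 573 genes.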

Additional observations from a re-analysis of the deposited data

How the results depend on the processing

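Of 16 alternatives, none turned the direction of any of the 133 called genes, and 27 of the 30 genes higher in brain and 75 of the 103 higher in lymph node kept their call in each alternative that tested them. Quantile normalization gave 58 genes higher in brain and 76 higher in lymph node, against 30 and 103, and dropping the 191 genes of lowest mean level gave 19 and 84. The median of all genes was 0.19 with quantile normalization and 0.14 with median centring, against -0.01 as deposited, and which scaling is right was not tested. Median centring gave 35 and 90. Leaving out each array in turn gave 29 to 32 genes higher in brain and 99 to 104 higher in lymph node.

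The number in the array titles as a replicate block gave the same 133 calls, 30 and 103. The deviations of same-numbered arrays correlated by -0.37, -0.003 and 0.29, and 1 of 6 arrays correlated best with its own number in the other tissue. No pairing by number was thus seen. Whether same-numbered arrays come from the same animal cannot be told from this, since tissues of an animal need not share such deviations. Signal near the human probe set median limits the folds of genes that are low in one tissue, and 3 arrays per tissue limit the precision. Against the other 7 tissues, 76 genes were called in brain (72 to 81 over the alternatives that tested all genes) and 62 in lymph node (52 to 70), and 55 and 47 with the lowest genes left out.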

Other observations

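Some called genes outside the gene lists were noted after their values were seen. Cmah, the hydroxylase that turns the sialic acid Neu5Ac into Neu5Gc, a form that brain is known to hold very little of, had 182, 265 and 197 on the brain arrays, against 563, 635 and 499 on the lymph node arrays. The lymph node arrays were all higher, with a difference of -1.41 ± 0.16 (limma adjusted p = 3.87e-08), and the call held under each of the 16 alternatives.

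Insulin-like growth factor genes went in both directions. Igf1, one of the 15 genes with the largest differences in favour of lymph node, had 74.4, 62.5 and 85.8 on the brain arrays, against 769, 1060.3 and 1156 on the lymph node arrays, a difference of -3.74 ± 0.19 (limma adjusted p = 2.67e-14). Igf2, with 1169, 1128 and 1095 in brain and 472, 455 and 454 in lymph node, was higher in brain by 1.30 ± 0.12, as was the binding protein Igfbp2 by 1.43 ± 0.11. Some cytokine receptors outside the interleukin list were called higher in lymph node and others were not. Called were Ifngr1, a chain of the interferon gamma receptor (503, 416 and 504 in brain and 3341, 3477 and 3385 in lymph node, -2.85 ± 0.20), and Osmr, a chain of the oncostatin M receptor (126, 74.9 and 129 in brain and 705, 696 and 629 in lymph node, -2.66 ± 0.17), while Ifngr2 (-0.51 ± 0.15), Ifnar1 (-0.51 ± 0.12), Lifr (-0.99 ± 0.19) and Flt3 (-0.66 ± 0.10) were not. Flt3l, the growth factor of dendritic cells, differed by -1.97 ± 0.12. In brain, Msmo1, an enzyme of cholesterol synthesis, was higher by 1.33 ± 0.23, and Pmm1, a phosphomannomutase, by 1.23 ± 0.14.

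Ltf, the lactoferrin of neutrophil granules, had 171, 139 and 177 in brain and 256, 692 and 654 in lymph node and differed by -1.59 ± 0.36, with lymph node replicate 1 well below the other arrays of its group. The neutrophil and platelet markers Csf3r (-0.15, with -1.22 by its other probe set and -0.68 with both averaged) and Cxcr2 (0.12) were not called, and the part of blood cells in the lymph node values was not tested.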
